A study of Mus musculus with 2 samples.

Results

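Genes for mitochondrial ribosomal proteins were compared between 2 arrays of primary mouse myoblasts, 1 from control cells and 1 from cells given Wnt3a. The genes were taken by symbol, Mrpl or Mrps followed by a number with an optional a or b, among probe sets that the platform annotation gives to 1 gene only. This gave 75 of the 18193 genes on the array, 47 with a large-subunit symbol (Mrpl) and 28 with a small-subunit symbol (Mrps). Each gene was represented by its brightest probe set, the one with the highest mean over both arrays. The myoblasts, the muscle precursor cells, came from newborn Sv129 mice and spent 4 hours in a low-serum medium, DMEM containing 2% horse serum. The control had this medium alone, and the treated cells had it with 100 ng/ml Wnt3a, a ligand of the pathway that acts through β-catenin. Each condition had 1 array, so no value has a replicate, no p-value can be given, and every difference describes these 2 arrays only.

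Mitochondria keep a ribosome of their own. It reads the few messages of the mitochondrial genome, which encode core subunits of the respiratory chain, while all of its proteins are encoded in the nucleus, made in the cytosol and imported. About the bacterial core, the mammalian mitochondrial ribosome holds many proteins that bacterial ribosomes lack. Mitochondrial ribosomal protein genes are expressed in nearly all cells, and in muscle they serve a tissue with a high demand for respiration.

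All 75 genes were well expressed by the measure used here. A gene counted as measured where its probe set reached a fixed brightness of 6 on the log2(intensity + 1) scale (an intensity of 63) on at least 1 array, which is no detection limit. All 75 did, as did 11397 genes in all. Mean levels ran from 8.45 for the Mrpl1 probe set to 12.42 for that of Mrpl13. Probe sets differ in how well they hybridise, so these levels do not rank the genes. The myoblast markers Myod1, Myf5, Pax7, Des and Cdh15 all lay between 10.91 and 13.41 in the control. Of 5 fibroblast markers sought 4 were on the array and none reached the floor, while 2 of 5 endothelial and 3 of 5 leukocyte markers did, none above 6.99, and 2 of 3 Schwann cell markers, none above 7.43. The summed intensity of the endothelial markers was 206 and 177 on the control and Wnt3a arrays, that of the leukocyte markers 339 and 358, and that of the Schwann cell markers 266 and 275. Their part in the results was not tested.

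**Figure D1:**
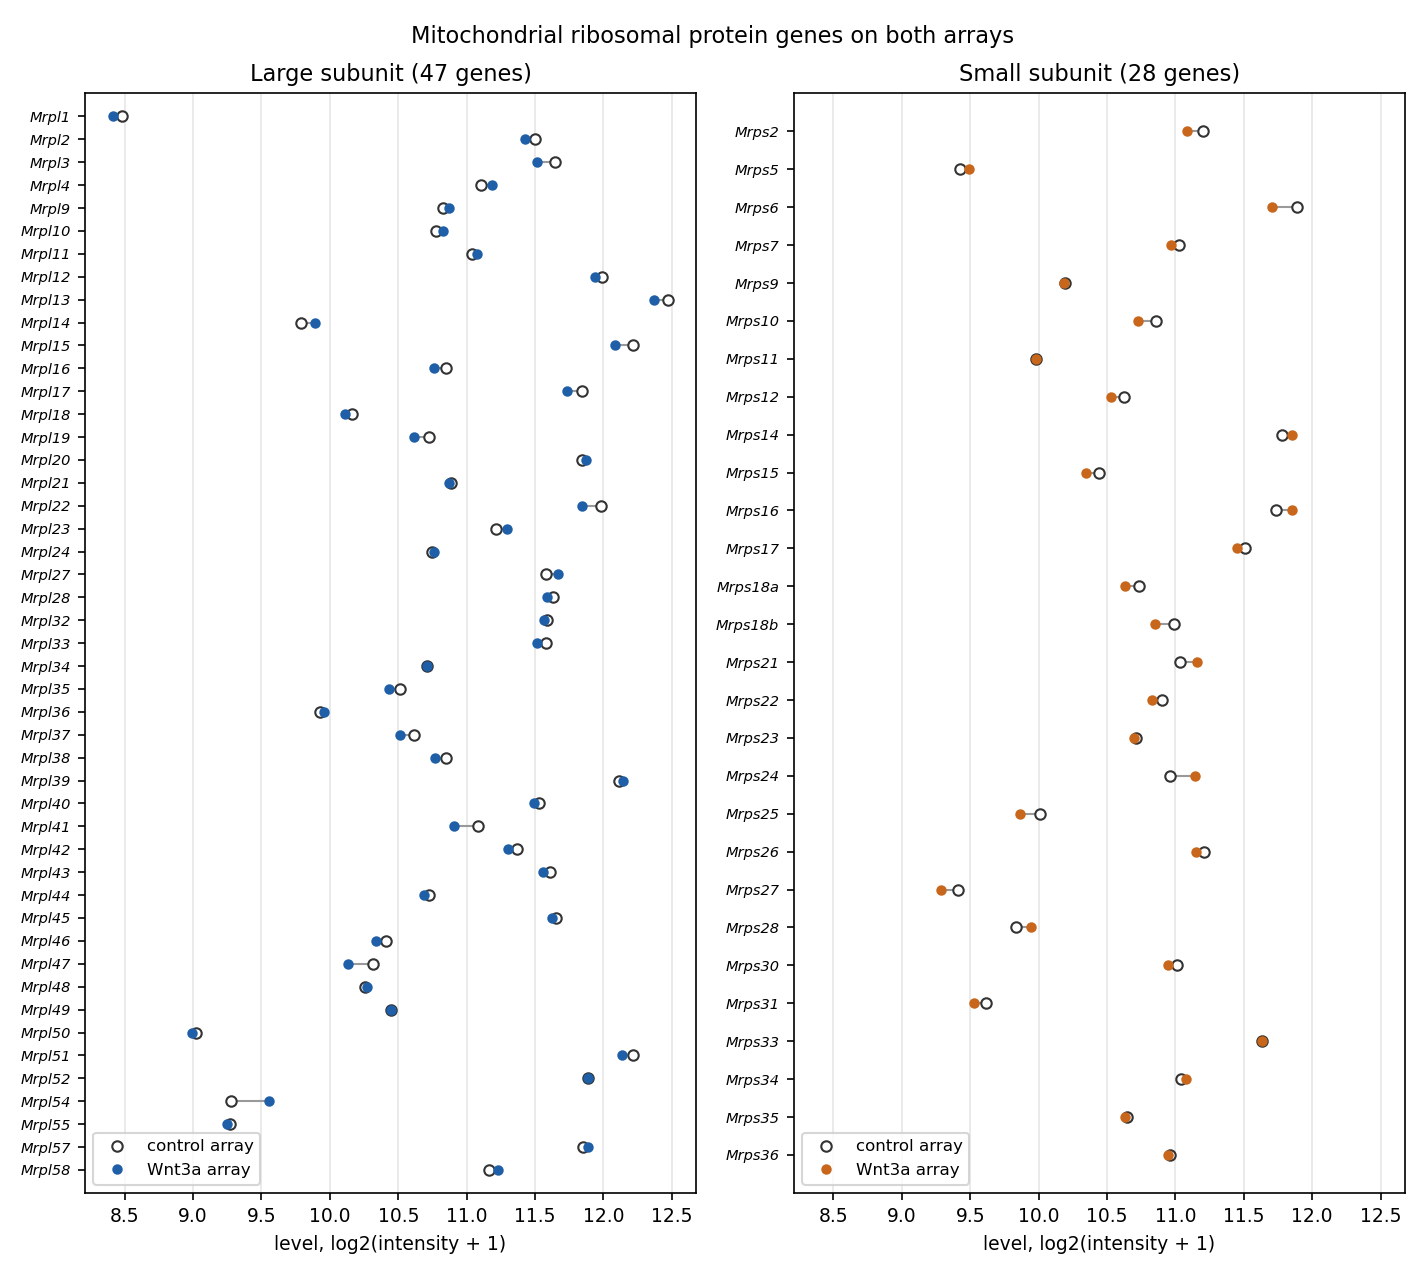
Level of each mitochondrial ribosomal protein gene, as log2(intensity + 1) of its brightest probe set, on the control array (open circles) and the Wnt3a array (filled circles), with the 47 large-subunit genes on the left and the 28 small-subunit genes on the right, in order of their numbers. The 2 circles of a gene lie close together, with the widest gap at Mrpl54 (9.27 and 9.55), and the genes stand far above the floor of 6.

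The mitochondrial ribosomal protein genes differed little between the arrays, and more of them were lower than higher with Wnt3a on the deposited scale. Of the 47 large-subunit genes 30 were lower, 16 higher and 1 identical, with a median log2 difference (Wnt3a minus control) of -0.038, whereas after scaling on the spike-in controls none was lower and the median was 0.15. Of the 28 small-subunit genes 20 were lower, 7 higher and 1 identical, with a median of -0.059, and here too none was lower after spike-in scaling, where the median was 0.13. Among all measured genes 51.2% were lower, with a median of -0.0057. Among the 6236 measured genes whose levels lay within the range of these 75 genes, 55% were lower, with a median of -0.017. As a group these were dimmer, with a median control level of 9.90 against 10.96 for the 75, so the levels are not matched. The share of lower genes was therefore 63.8% for the large and 71.4% for the small subunit against 51.2% of measured genes (47.3% of measured genes were higher). Some alternatives on the deposited scale brought the share of 1 subunit close to the background and changed that of the other less. Without probe sets that can match several transcripts 21 of 41 large-subunit genes were lower, with a median of -0.019, against 51.0% of all genes. The small subunit then had 14 of 19 lower, with a median of -0.059. With a loess trend of difference on level removed 15 of 28 small-subunit genes were lower, against 48.2% of all genes. The large subunit then had 27 of 47 lower, with a median again of -0.019. With 1 array a condition it is unknown how far such a share moves between any 2 cultures, and in bulk RNA a lower level per cell cannot be told apart from fewer expressing cells.

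The deposited scale sets what counts as lower. All 42 spike-in probe sets (bacterial and phage RNAs added during labelling and hybridisation) were lower on the Wnt3a array, by a median of -0.19. Scaling on them would add 0.19 to each difference, and all 75 mitochondrial ribosomal protein genes would then be higher, from 0.0072 to 0.47, beside a median of 0.19 over all measured genes. Which scale is right was not tested. The order of the genes among themselves is the same on both scales, since the scaling adds 1 constant. The medians of both subunits lay below the median of all measured genes on both scales, though single genes lay above it.

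The spread among the 75 genes was narrow. The middle 50% of them spanned 0.12 on the log2 scale, against 0.17 for all measured genes and 0.16 for genes within the same range of levels. Both backgrounds were dimmer, with median control levels of 8.97 and 9.90 against 10.96 for the 75 genes. Only Mrpl54 passed 1.2-fold, on the high side, where 4.04% of measured genes lay, and none of the 75 genes was lower by 1.2-fold, where 4.55% of measured genes lay. At 1.1-fold 7 of the 75 genes were lower and 2 higher, against 16.7% and 13.4% of measured genes. None reached 1.5-fold in either direction, against 0.886% of measured genes higher and 0.342% lower. Large differences were thus no more common among these genes than in the background, and the tilt toward lower values lay in small differences. Mrpl54, at 1.21-fold, stood just inside the 1.2-fold limit, and Mrps24, at 1.13-fold, was the nearest outside it on the high side. On the low side the nearest was Mrps6 (-0.18).

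**Figure D2:**
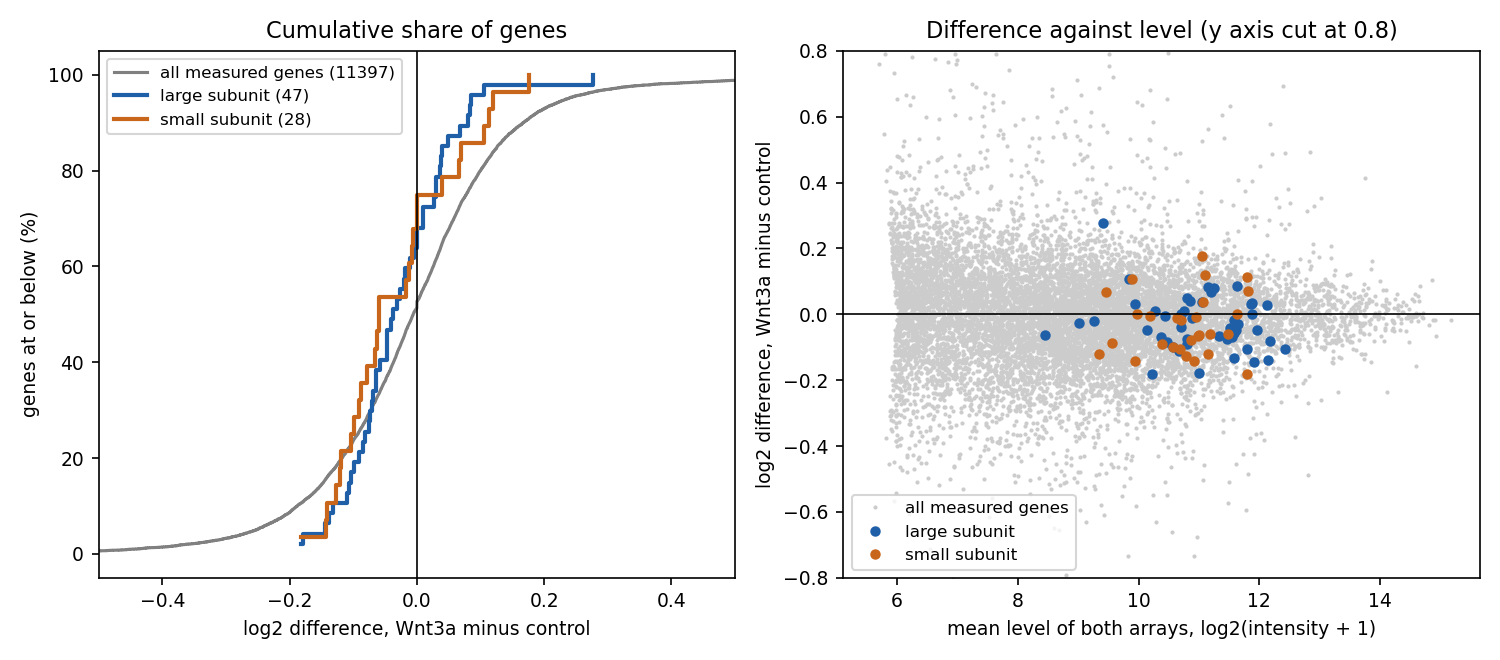
Left, cumulative share of genes (percent) against the log2 difference, Wnt3a minus control, for all 11397 measured genes, the 47 large-subunit and the 28 small-subunit genes. Right, the same difference against the mean level of both arrays. Both coloured curves cross 0 at a higher share than the grey one on the deposited scale (under spike-in scaling all 75 genes lie above 0), and the coloured points lie between -0.18 and 0.28.

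Among large-subunit genes, Mrpl54 stood apart on the high side. It encodes a protein of the large subunit, and its brightest probe set read 9.27 in the control and 9.55 with Wnt3a, a difference of 0.28. Its other probe set lay near the floor, at 5.78 and 6.16, and differed by 0.38 in the same direction. The next genes on the high side followed at a distance. Mrpl14, a homologue of a bacterial protein at the subunit interface, read 9.79 and 9.89, and Mrpl27, whose bacterial homologue reaches toward the peptidyl transferase centre, read 11.58 and 11.66. Mrpl4 (0.084), Mrpl23 (0.080), Mrpl58 (0.068) and Mrpl10 (0.048) were smaller still. Mrpl58, also called ICT1, is a peptidyl-tRNA hydrolase built into the large subunit, and Mrpl10 anchors the stalk that recruits translation factors.

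On the low side of the large subunit no gene stood apart from the rest. Mrpl47 read 10.32 in the control and 10.13 with Wnt3a, and Mrpl41 read 11.08 and 10.90, both differences of -0.18. The 2 probe sets of Mrpl41 at the floor gave the same value, -0.18, while Mrpl47 had 1 such probe set. Mrpl22, which lines the exit tunnel for the growing chain, read 11.99 and 11.84 on its only probe set. Mrpl15 (12.22 and 12.08) was lower on all 7 of its probe sets at the floor, by -0.011 to -0.17. Mrpl3 (11.65 and 11.52) was lower on all 3, by -0.073 to -0.19, and Mrpl13 (12.47 and 12.37) on all 3, by -0.11 to -0.25. Mrpl19 (-0.11) and Mrpl17 (-0.10) were lower on the brightest probe set but higher on another, by 0.11 and 0.13. Under spike-in scaling the brightest probe sets of all these genes become positive, while the lowest probe set of Mrpl3 (-0.19) and the values of Mrpl13 at -0.23 and -0.25 stay below 0.

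Genes of the stalk and of the tunnel exit were examined as structural groups. In the stalk, Mrpl10 (0.048) and Mrpl11 (0.038) were higher and Mrpl12 was lower (11.99 and 11.94, -0.047). Mrpl12, the mitochondrial counterpart of the bacterial L7/L12 stalk protein, also binds the mitochondrial RNA polymerase. The other probe sets of Mrpl11 gave -0.043 and -0.055. Around the tunnel exit, Mrpl17, Mrpl22, Mrpl45 and Mrpl47 were lower and Mrpl23 and Mrpl24 higher, with a median of -0.067, and under spike-in scaling all were higher. Mrpl45, which ties the ribosome to the inner membrane, differed by only -0.031. Mrpl44, a protein with an RNase III-like fold, differed by -0.038 on its brightest probe set (10.73 and 10.69) and by up to -0.21 on the 3 others at the floor.

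In the small subunit, Mrps24 was the highest and Mrps6 the lowest. Mrps24 read 10.96 in the control and 11.14 with Wnt3a (0.18), but its other probe set differed by 0.047. Mrps21 read 11.04 and 11.15, and its probe sets agreed, at 0.12 and 0.13. Mrps16 (11.74 and 11.85), a homologue of a bacterial protein needed for small-subunit assembly, and Mrps28 (9.84 and 9.94) had 1 probe set each, and Mrps14 followed at 0.069, with a value of 0 on its other probe set at the floor. Mrps6 read 11.89 and 11.71, a difference of -0.18 on the brightest and -0.16 on the other probe set.

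Most of the other small-subunit genes were slightly lower on the deposited scale, and all were higher under spike-in scaling. Mrps25 (10.01 and 9.86) was lower on 3 probe sets, by -0.087 to -0.16. Mrps10 (10.86 and 10.73) gave -0.13 and -0.11 on its 2, and Mrps2 (11.20 and 11.08) gave -0.12 and -0.068. Mrps18b differed by -0.14 and Mrps12, homologue of the bacterial protein that helps control decoding accuracy, by -0.099 (10.63 and 10.53). Ribosome structures place the products of Mrps30 (11.01 and 10.94) and Mrps18a (10.74 and 10.63) in the large subunit despite their symbols. With both moved there, the medians became -0.041 for 49 large-subunit and -0.038 for 26 small-subunit genes, so the lower median of the small subunit does not hold under that assignment. Mrps36 (-0.0082) encodes a protein now known as a component of the 2-oxoglutarate dehydrogenase complex, and without it 49 of 74 genes were lower.

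**Figure D3:**
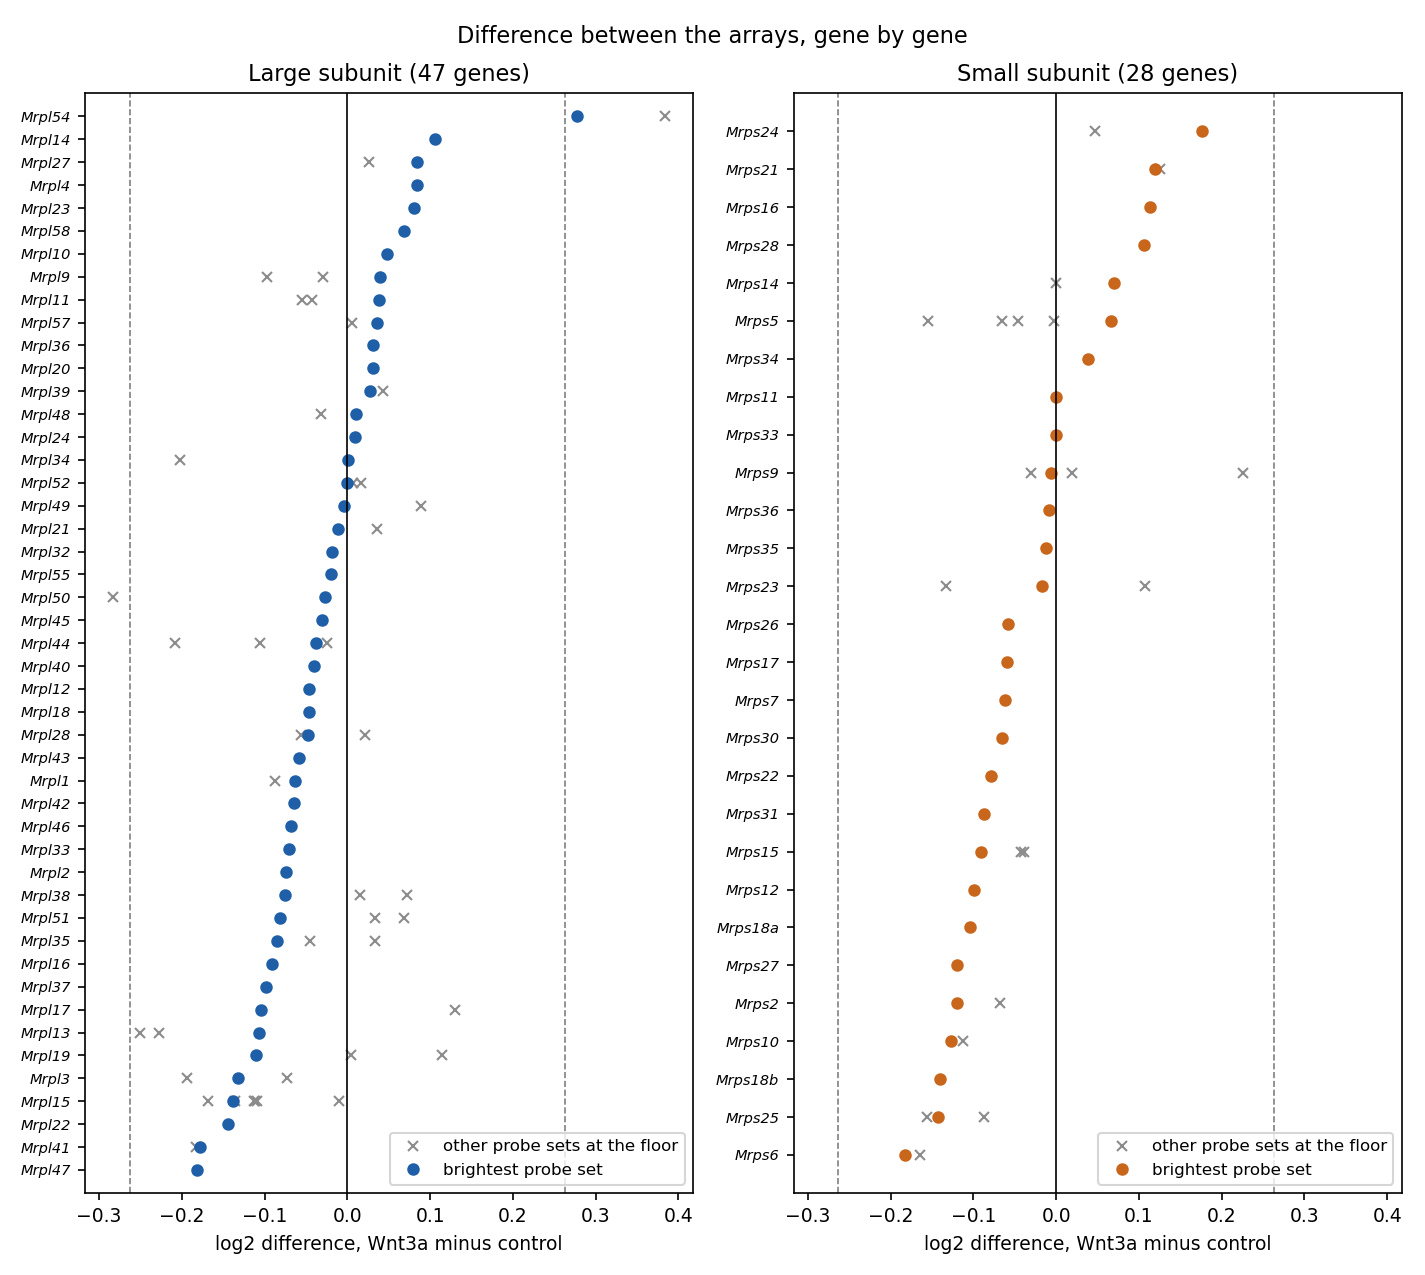
Log2 difference, Wnt3a minus control, of each gene on its brightest probe set (filled circles) and on its other probe sets at the floor (crosses), ordered by the former, with dashed lines at 1.2-fold. Only Mrpl54 lies past a dashed line on its brightest probe set, many crosses lie on the other side of 0 from their circle, and spike-in scaling would move every point to the right by 0.19.

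Probe sets of the same gene are the only repeat measurement, and they often disagreed in sign. Of the 75 genes, 35 had at least 2 probe sets at the floor, and the pooled SD of the difference between them was 0.075, against 0.12 for all measured genes with as many. On the deposited scale all probe sets were lower in 12 of the 35 genes and higher in 6, while the other 17 had both signs or a value of 0. One sign was thus seen in 51.4% of them, against 54.7% of all 5084 measured genes with at least 2 probe sets at the floor. The widest disagreements were in Mrpl50 (-0.027 and -0.28), Mrps9 (from -0.030 to 0.23 on 4 probe sets), Mrps23 (from -0.13 to 0.11 on 3) and Mrps5 (from -0.16 to 0.067 on 5). Mrpl34 gave 0.00035 on the brightest probe set and -0.20 on the other. The 12 genes lower on all probe sets at the floor were Mrpl1, Mrpl3, Mrpl13, Mrpl15, Mrpl41, Mrpl44, Mrpl50, Mrps2, Mrps6, Mrps10, Mrps15 and Mrps25. The 6 genes higher on all of them were Mrpl27, Mrpl39, Mrpl54, Mrpl57, Mrps21 and Mrps24. Under spike-in scaling the brightest probe sets of the 12 lower genes turn positive. Not every probe set of Mrpl3, Mrpl13, Mrpl44 and Mrpl50 does.

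Genes of proteins with and without a bacterial counterpart were compared by class. Of 42 genes listed with a bacterial counterpart 25 were lower (59.5%), and of 25 listed without one 20 were lower (80%). Among all measured genes 51.2% were lower, and 55% of those within the range of levels of the 75 genes. Under spike-in scaling all genes of both classes were higher. The medians were alike, -0.047 and -0.041. The 8 genes put in neither class had 5 lower and a median of -0.014. Whether the shares differ between classes cannot be tested with 1 array a condition.

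Some mitochondrial ribosomal proteins fall outside the symbol rule. Mrps18c, left out for its suffix, read 10.71 and 10.63, a difference of -0.076. Mrpl30 and Mrpl53 share their probe sets with another gene in the annotation (Gm6238 and Ccdc142), and these differed by -0.014 (12.52 and 12.51) and 0.028 (11.73 and 11.75) on the brightest. Ribosomal proteins with other names gave Ptcd3 (-0.062), Chchd1 (-0.062), Dap3 (-0.0022) and Gadd45gip1 (0.049). All lay within the range of the 75 genes.

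Genes that build and run the mitochondrial ribosome were also lower more often than higher on the deposited scale, where 51.2% of all measured genes were lower. Of 27 measured assembly factors 21 were lower, with a median of -0.040, which became 3 lower and 0.15 under spike-in scaling. The largest were Gtpbp10, a GTPase of large-subunit assembly (8.12 and 7.83, -0.29 and -0.23 on its 2 probe sets), the rRNA methyltransferase gene Mrm1 (-0.22) and the pseudouridine synthase gene Rpusd4 (-0.19), with Mettl17 on the high side (0.16). Only Gtpbp10 passed 1.2-fold. Of 13 translation factors 8 were lower (median -0.040, and 0.15 under spike-in scaling), led by the release factor gene Mtrf1l (-0.25) and the initiation factor gene Mtif2 (-0.13), with Slirp (-0.10), an RNA stabiliser, also lower. The membrane insertase gene Oxa1l differed by 0.14 on its brightest and -0.14 on its other probe set. Of 19 genes of mitochondrial aminoacyl-tRNA supply, which load tRNAs with amino acids, 12 were lower (median -0.073, and 0.12 under spike-in scaling). Mars2 (-0.26) and Pars2 (-0.17) were lower, and Sars2 (0.17) and Aars2 (0.14) higher. Averaged over all probe sets of each gene, the medians were -0.055 for assembly, -0.014 for translation factors and -0.034 for aminoacyl-tRNA supply, and no difference between these groups was tested. The shares lower were 77.8% for assembly, 61.5% for translation factors and 63.2% for aminoacyl-tRNA supply. These groups were not run with the loess trend removed, nor without probe sets that can match several transcripts.

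Genes of mitochondrial transcription and RNA processing included 17 lower ones among 18 (median -0.10), against 51.2% of all measured genes, and 5 lower ones under spike-in scaling (median 0.089). These genes make and cut the transcripts that carry the ribosome's rRNAs and messages. Tfb2m, a transcription initiation factor, read 10.64 in the control and 10.32 with Wnt3a (-0.32). Tfam, which packages mitochondrial DNA and activates its promoters, read 10.41 and 10.10 (-0.31), but its other probe set differed by only -0.032. Trmt10c (-0.26) and Prorp (-0.24) encode parts of the mitochondrial RNase P. The count of genes lower by 1.2-fold was 3 of 18 here, beside 4.55% of all measured genes. Whether this group differs from the ribosomal proteins was not tested.

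**Figure D4:**
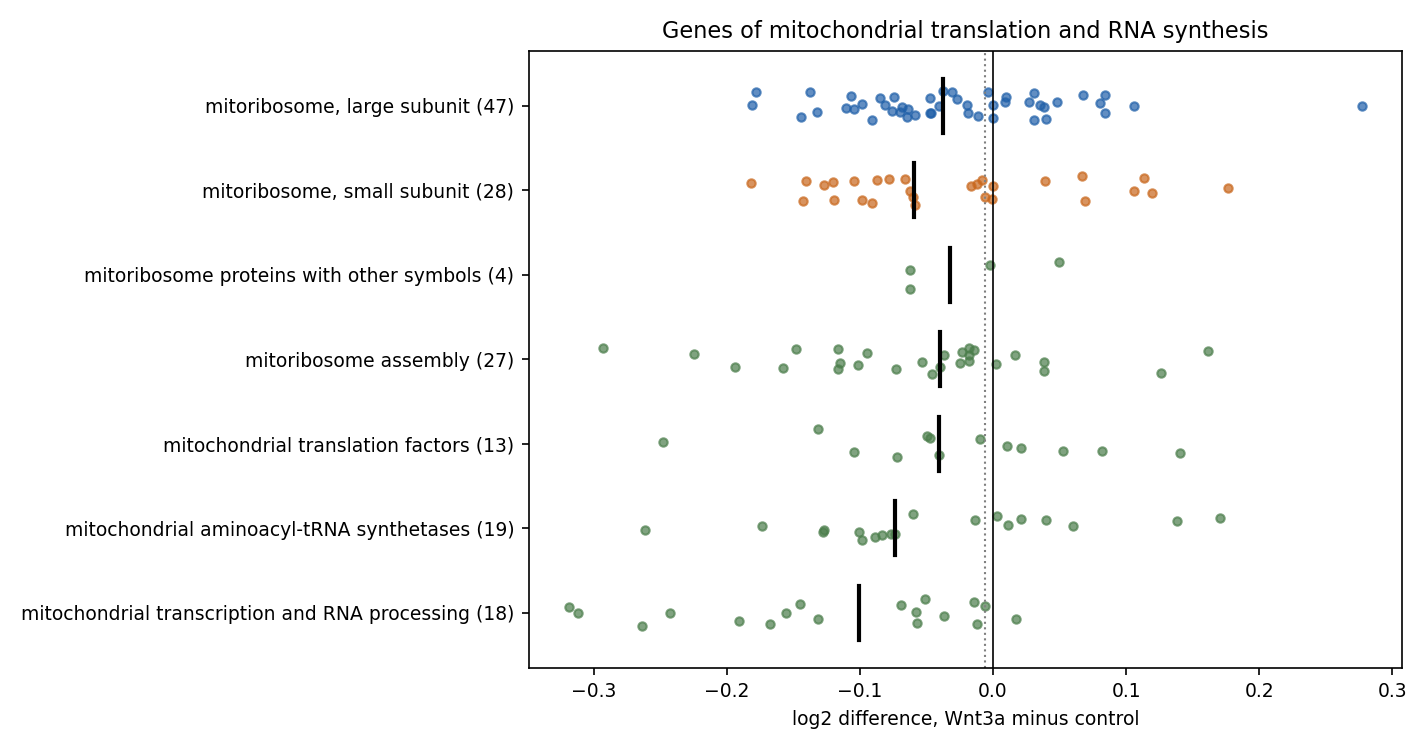
Log2 difference, Wnt3a minus control, of every measured gene in 7 groups of mitochondrial translation and RNA synthesis (number of genes in brackets), with the median as a black bar, 0 as a solid line and the median of all measured genes, -0.0057, as a dotted line. All medians lie left of 0 on the deposited scale, from -0.032 to -0.10, and all turn positive under spike-in scaling, while that of the proteins with other symbols also turns positive (0.021) as a mean over all probe sets.

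Of 10 nuclear regulators of mitochondrial genes, 6 were lower and 4 higher (median -0.078, and 0.11 under spike-in scaling), beside 51.2% lower among all measured genes. Averaged over all probe sets of each gene, 5 of the 10 were lower. On the brightest probe sets 4 of the 10 lay outside the range of the 75 ribosomal protein genes. Ppargc1a, the coactivator PGC-1α, was under the floor on the control array (5.22) and at 7.71 with Wnt3a, at least 3.27-fold higher against the floor, and Myc, a general driver of growth genes, read 10.58 and 9.44. Ppargc1b (-0.42) and Max (-0.24) were lower, also under spike-in scaling. The other 6 lay between -0.16 (Pprc1, a relative of PGC-1α) and 0.096 (Nrf1), among them Yy1 (-0.11, and up to 0.20 on another probe set), Gabpb1 (0.070) and Gabpa (-0.044).

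Promoters of these genes were searched for motifs of regulators known to act on mitochondrial genes. RefSeq promoter sequences of GRCm38.p6, from 250 bases before to 50 after a start site, were found for 66 of the 75 genes (72 promoters). Both strands were searched for CCGGAAG (ETS factors such as GABP), GCGC and TGCGC separated by any 1 base (NRF1), AAGATGGCG (YY1), CACGTG (the E-box of Myc and Max) and CTTTGAT (TCF/LEF, the partners of β-catenin). No matches of the first 3 motifs overlapped each other in these promoters. The windows below are shown as examples of such matches. Capitals mark the match, all windows but that of Mrps24 lie before the start site, and each is given 5′ to 3′ on the strand of its gene.
Mrpl3 (chr9:105053209-105053267, + strand, lower on 3 probe sets, ETS match): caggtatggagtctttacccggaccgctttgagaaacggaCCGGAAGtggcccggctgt
Mrpl51 (chr6:125192070-125192156, + strand, -0.081, ETS match): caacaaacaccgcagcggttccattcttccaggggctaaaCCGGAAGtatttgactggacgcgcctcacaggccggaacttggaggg
Mrpl12 (chr11:120484516-120484605, + strand, -0.047, NRF1 match): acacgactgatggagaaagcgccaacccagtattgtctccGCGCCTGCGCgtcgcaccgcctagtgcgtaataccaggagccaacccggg
Mrps21 (chr3:95871556-95871645, - strand, 0.12, NRF1 match): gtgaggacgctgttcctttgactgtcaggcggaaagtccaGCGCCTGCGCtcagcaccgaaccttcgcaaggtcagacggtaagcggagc
Mrps24 (chr11:5707652-5707675, - strand, 0.18, YY1 match): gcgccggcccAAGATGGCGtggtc

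Matches to the ETS, NRF1 and YY1 motifs were common in these promoters, and no TCF/LEF match was found. The ETS motif was in 33.3% of the 72 promoters, against 17.3% of 11783 promoters of measured genes and 8.86% of all 32851. The NRF1 motif was in 16.7%, against 9.92% and 4.60%, and the YY1 motif in 11.1%, against 2.99% and 1.40%. In all, 38 of the 66 genes had at least 1 of these 3. The E-box was in 8.33%, against 9.96% and 7.15%. CTTTGAT was in none of the 72, against 2.54% and 3.73%, which says only that these letters are not in these windows. The median GC content was 58.5% in the 72 promoters and 61.0% in those of measured genes.

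The differences between the arrays overlapped between genes with and without the ETS, NRF1 or YY1 motif. Genes with the ETS motif had a median of -0.053 (16 of 24 lower) and those without it -0.039 (29 of 42). The NRF1 motif gave -0.012 with (7 of 12 lower) and -0.059 without (38 of 54). The YY1 motif gave -0.075 with (5 of 8 lower) and -0.039 without (40 of 58). Among all measured genes 51.2% were lower, and whether the medians differ by motif was not tested. Each group ranged over both signs, for example from -0.12 (Mrps27) to 0.18 (Mrps24) among genes with the YY1 motif. These are descriptions on the deposited scale, and spike-in scaling turns all of these medians positive. A match is not evidence that a factor binds.

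The cytosolic ribosome is encoded by a separate set of nuclear genes, and those that could be followed here were evenly divided on the deposited scale. Of 42 cytosolic ribosomal protein genes with a probe set of their own, 21 were lower and 21 higher, with a median of -0.0011. Among all measured genes 51.2% were lower. Spike-in scaling would add 0.19 to each of these differences too, and the counts under it were not computed. Their probe sets were brighter, with a median control level of 14.43 against 11.08 for the large and 10.93 for the small mitochondrial subunit. The difference from the mitochondrial ribosomal proteins was not tested.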

How the data were processed

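The authors deposited 1 intensity per probe set and array, on a linear scale. RMA, affy and limma are named in the submitters' processing notes, and neither settings nor a genome build are given in the sources used here. Per the labels' protocols, biotinylated cRNA was made from total RNA with a 3′ kit, so only the 3′ ends were measured. In general RMA equalises the distribution of probe intensities between arrays, which removes a shift common to all genes.

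Of 45101 probe sets, 34945 were assigned to 1 gene (64 control probe sets were left out). Levels are log2(intensity + 1). Differences are Wnt3a minus control. No test was possible with 1 array per condition, and the number of arrays limits the precision. All 75 genes matched RefSeq by Entrez identifier.

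The genes and lists were chosen with earlier results of these data known. The class and tunnel exit lists were corrected, and the motifs chosen, after values had been seen. Named genes were the 8 highest and lowest large-subunit and 5 highest and lowest small-subunit genes, the brightest probe sets, 5 fixed genes, the 8 with the widest spread between probe sets and the top members of the other lists. The steps were checked on simulated data. Alternatives covered the pseudocount, probe set choice, floor, scaling, threshold and member rules. Loess (span 0.3) came from statsmodels 0.14.6, and tables were handled with pandas 2.3.3 under Python 3.11.15.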

Additional observations from a re-analysis of the deposited data

How the results depend on the processing

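No paired analysis was possible because each condition had 1 array. Scaling decided the direction. Scaled on the spike-in controls, the median of all measured genes moved to 0.19 with 9.59% lower. The large-subunit median became 0.15 with 0 lower and 5 at least 1.2-fold higher. The small-subunit median became 0.13 with 0 lower and 4 at least 1.2-fold higher. The share of all measured genes at least 1.2-fold higher on this scale was not computed, so the counts of 5 and 4 have no background beside them. The medians of the other lists became 0.16 for proteins with other symbols (0 lower), 0.15 for assembly (3 lower), 0.15 for translation factors (1 of 14 lower), 0.12 for aminoacyl-tRNA supply (1 lower), 0.089 for transcription and RNA processing (5 lower) and 0.11 for nuclear regulators (3 lower). With a loess trend removed, the medians were -0.019 for the large and -0.044 for the small subunit, with 27 of 47 and 15 of 28 genes lower against 48.2% of all genes. Quantile normalization gave 27 of 47 and 16 of 28 lower, against 48.7% of all genes.

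Without probe sets that can match several transcripts, the large-subunit median was -0.019 and 21 of 41 genes were lower, against 51.0% of all genes. The tilt of this subunit thus ended, while 14 of 19 small-subunit genes were lower. This setting dropped genes with no other probe set at the floor and moved others to dimmer ones. Mrpl17 went from 11.84 to 6.26 in the control, and its difference from -0.10 to 0.13. With Mrps30 and Mrps18a counted in the large subunit, the small-subunit median was -0.038. At a threshold of 1.1-fold, 4 large-subunit and 3 small-subunit genes were lower, and 1 large-subunit and 1 small-subunit gene were higher. At 1.5-fold 0 large-subunit genes were higher. Averaged over all probe sets of a gene, the medians were 0.021 for proteins with other symbols, -0.055 for assembly, -0.014 for translation factors, -0.034 for aminoacyl-tRNA supply and -0.043 for nuclear regulators, and 60 of the 75 genes kept their sign. The cause was not tested. Mrpl54 stayed above 1.2-fold under every scaling and probe set choice run. The pseudocount, the floors, the centring on the median and the wider suffix rule moved neither subunit's median by more than 0.0057.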
